A study of Rattus norvegicus with 2 samples.

Results

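The cells described here are the Penk-Col8a1-B3gat2 cells of the neonatal rat cochlear duct, a set of mesenchymal cells chosen from droplet single-cell RNA sequencing by UMI counts of named genes. A cell was a member when at least 1 UMI was found for 2 or more of Penk, Col8a1 and B3gat2, when Otor took less than 1% of its UMIs, and when it did not hold both 3 or more UMIs of Gpc3 and 5 or more UMIs of Dcn. In all, 1222 of 22101 kept cells without UMIs of the division genes Top2a and Ube2c met this rule, 862 in the P1 library and 360 in the P7 library. Kept cells had more than 500 and fewer than 5000 genes and less than 25% mitochondrial UMIs, and they were 25360 of 28569 barcodes with the dividing cells counted in.

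The study set cochlear ducts of untreated Sprague-Dawley rats at postnatal day 1 (P1) beside those at postnatal day 7 (P7), with the aim of following the greater epithelial ridge before the onset of hearing. Each age is 1 library of cells pooled from many animals by the study's methods, so no difference between ages has a replicate check, and age and library cannot be told apart. The labels call the cells greater epithelial ridge cells, an epithelium, and the members do not carry that identity. Epcam, the epithelial adhesion molecule, stood at 17.5 counts per 1000000 UMIs (CPM) in the P1 members and 13.1 CPM in the P7 members, against 39.8 and 48.6 in the other kept cells and 16.2 and 3.92 in macrophage-marker cells. By contrast 90.1% of the P1 members and 92.2% of the P7 members held at least 3 of 10 mesenchyme markers, against 72.2% and 80.8% of the other kept cells. The summed level of these markers went the other way, at 3757 CPM in the P1 members against 6103 in other cells. At P7 the sums were 3002 and 6637. Over the 7 markers tested, the median log2 ratio of members to other cells was 0.16 at P1 and -0.81 at P7.

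The cochlear duct lies in a mesenchyme of fibroblasts and fibrocytes that form the spiral limbus, the spiral ligament and the lining of the fluid spaces, and that lay down a matrix of collagens, proteoglycans and elastic fibres. Penk encodes proenkephalin, the precursor that convertases and carboxypeptidases cut into enkephalin opioid peptides. Col8a1 encodes a chain of collagen VIII, a short collagen that builds networks rather than fibrils, and B3gat2 a glucuronosyltransferase that makes the HNK-1 carbohydrate of adhesion molecules. The other markers of the set are Ogn (osteoglycin, a small leucine-rich protein of the matrix), Mgp (matrix Gla protein, an inhibitor of calcification) and Spp1 (osteopontin).

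The 250 bases before the annotated start of both rule genes found in the RefSeq promoter table are shown because their UMIs chose the cells, with that of Egr1, which leads a group of genes lower at P7 described further on. The table is on rat build GRCr8, while the counts were made on build rn6. Capitals mark matches on either strand to the Sp1 box (GGGCGG) in Col8a1 and B3gat2 and to the CArG box, the serum response element, in Egr1.
Col8a1, chr11:56246532-56246781, plus strand: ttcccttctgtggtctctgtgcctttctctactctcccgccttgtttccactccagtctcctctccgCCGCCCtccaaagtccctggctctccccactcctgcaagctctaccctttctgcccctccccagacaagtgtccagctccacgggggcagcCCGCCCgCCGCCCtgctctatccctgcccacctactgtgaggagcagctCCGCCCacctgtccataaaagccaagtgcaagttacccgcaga
B3gat2, chr9:33663232-33663481, plus strand: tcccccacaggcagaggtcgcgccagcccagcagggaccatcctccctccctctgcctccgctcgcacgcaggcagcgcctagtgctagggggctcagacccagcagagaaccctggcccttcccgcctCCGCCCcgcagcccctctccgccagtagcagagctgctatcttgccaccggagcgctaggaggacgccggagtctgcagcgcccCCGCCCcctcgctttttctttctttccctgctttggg
Egr1, chr18:26736828-26737077, plus strand: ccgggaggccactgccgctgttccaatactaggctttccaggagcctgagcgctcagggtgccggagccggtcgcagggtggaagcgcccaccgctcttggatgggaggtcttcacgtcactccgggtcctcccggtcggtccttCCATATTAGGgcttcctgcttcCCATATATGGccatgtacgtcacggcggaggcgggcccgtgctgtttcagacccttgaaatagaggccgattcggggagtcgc

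Col8a1 held 4 matches to the Sp1 box and B3gat2 held 2, a motif found in 30.5% of 33469 promoter windows of the same length. Neither held a TATA box (TATAAA, 12.9% of windows), a cyclic AMP response element (TGACGTCA, 1.59%) or an AP-1 site (TGANTCA, 6.34%). Penk and Fos were searched too and were not in the table used here.

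Members made up 7.71% of the kept non-dividing cells at P1 (95% exact binomial interval 7.22 to 8.22) and 3.30% at P7 (2.97 to 3.65). The P7 share was lower by 1.23 on the log2 scale (P7 over P1 -1.23, interval -1.41 to -1.05), a share 2.34-fold higher at P1. Intervals here and throughout cover counting error in these libraries and not the spread between animals. Those of gene levels and of their ratios treat each UMI as independent, so they leave out the spread between cells too. Member cells were not shallower at P7, with a median of 7422 UMIs against 6858 at P1, and other cells had 6629 and 6316. When each cell was thinned to 2000 UMIs and the rule read again, 2.61% of the P1 cells and 0.789% of the P7 cells were members. The rule also picks some cells that should lack these genes. Among cells with 3 or more macrophage markers, 1.91% at P1 (3 of 157) and 1.93% at P7 (4 of 207) met it, and among cells with 3 or more glial markers 1.71% and 1.68%. Shares of this size were read as the background of the rule. Glial markers at 3 or more were found in 4.18% of the P1 members and 19.4% of the P7 members, against 20.01% and 38.9% of other cells. Their part in the results was not tested on its own. Results without barcodes holding 3 or more markers of any other class are given further on.

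The pair of rule genes that a cell held differed between ages. All 3 genes were found in 26.5% of the P1 members and 14.4% of the P7 members, while Col8a1 and B3gat2 without Penk were found in 41.3% and 54.7%. Penk was held by 58.7% of the P1 members and 45.3% of the P7 members, Col8a1 by 89.4% and 91.1%, and B3gat2 by 78.3% and 78.1%. Penk UMIs were also uneven among cells. At P1 its median was 1 UMI per member, 78 members (9.05%) held 5 or more and the richest held 68, whereas at P7 10 members (2.78%) held 5 or more.

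The levels of the rule genes are a description, since these UMIs chose the cells. Penk stood at 211 CPM in the P1 members (95% Poisson interval 200.3 to 222) and at 105.5 in the P7 members (94.0 to 118), against 17.6 and 6.73 in the other kept cells. Col8a1 stood at 465 and 406 in the members against 64.8 and 81.1 elsewhere, and B3gat2 at 215.5 and 149 against 28.0 and 21.1. In macrophage-marker cells that were not members Penk was at 4.88 and 1.31 CPM. Leaving out those that met the rule lowers this value, and free RNA was not estimated.

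Of the 3 markers that the rule did not read, Ogn had the widest excess over all other cells. Ogn stood at 1751 CPM in the P1 members (1720 to 1782) and 1130 in the P7 members (1092 to 1170), against 463 and 444 in other cells, and 97.9% and 93.9% of the members held a UMI of it. The lower excess of both libraries was 1.34 on the log2 scale, and 0.98 without barcodes holding 3 or more markers of another class. Ogn was also high in the nearest sets, at 1287 and 830 CPM in the Sfrp4-Dlx5-Matn4 cells and 1060 and 793.5 in the Gpc3-Dcn cells described further on. In macrophage-marker cells, of median depth 7180 and 6682 UMIs, Ogn was at 107 and 236 and 18.8% and 27.6% held a UMI. After thinning, the shares with Ogn were 89.8% and 80.0% of members against 9.52% and 20.7% of macrophage-marker cells.
Mgp stood at 2327 CPM at P1 and 836.5 at P7, against 798 and 603 in other cells. Its excess over other cells was 1.54 on the log2 scale at P1 and 0.47 at P7, so at P7 Mgp no longer marked these cells well.
Spp1 stood at 655 and 333 CPM against 517 and 174. It did not reach a 2-fold excess in either library, and as a marker of these cells it was weak.

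**Figure D1:**
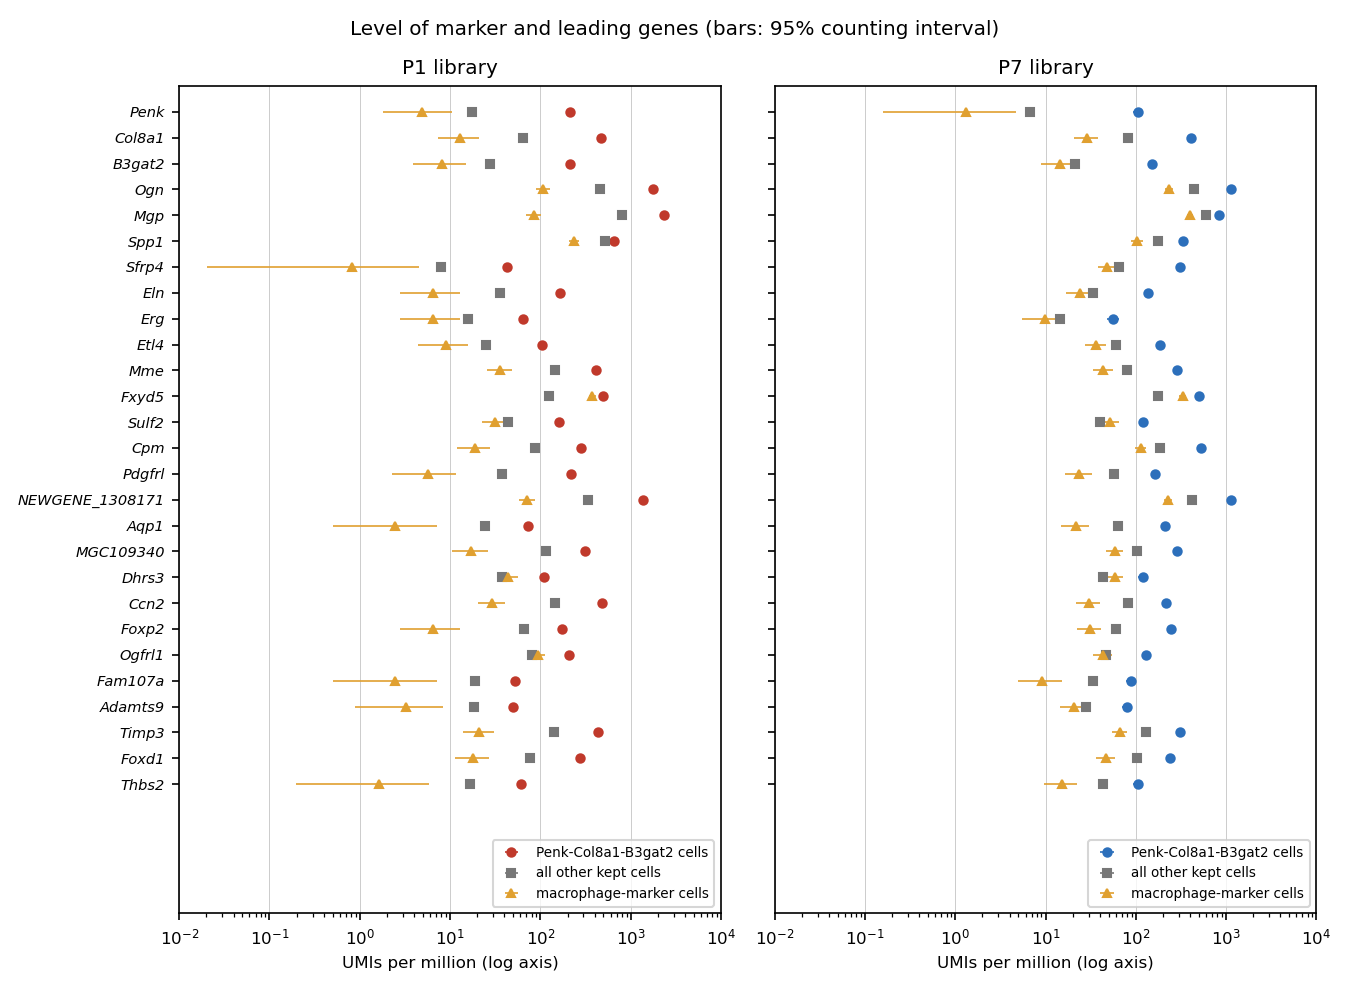
Levels of the 6 markers and the other genes that led the members, in CPM on a log axis, where CPM are UMIs per 1000000 UMIs, at P1 (left) and P7 (right), for Penk-Col8a1-B3gat2 cells, all other kept non-dividing cells and macrophage-marker cells, 1 library per age. Points are summed UMIs with 95% Poisson intervals, and in both libraries the members lie to the right of the other cells, least for Spp1 at P1 (655 against 517) and Mgp at P7 (836.5 against 603).

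Against all other kept cells, 36 of 2798 genes with at least 50 CPM in members were at least 2-fold higher in the members in both libraries (1.29% of the genes tested), and 21 were at least 2-fold lower (0.751%). The rule chose the cells by their UMIs, so these counts describe the members and test nothing, and the other cells hold glia, vessels and epithelium as well as mesenchyme. Eln, which encodes tropoelastin, stood at 165 and 135 CPM in the members against 35.99 and 33.9 in other cells, a log2 excess of 2.05 at P1 and 1.84 at P7. Thbs2, Ccn2, the protease inhibitor gene Timp3, the metalloprotease gene Adamts9 and Sulf2, a sulfatase that trims heparan sulfate, had log2 excesses of 1.19 to 1.78. Against other cells with 2 or more UMIs of both Col1a1 and Col3a1, the lower excess of both libraries was under 2-fold for Thbs2 (0.30 on the log2 scale), Sulf2 (0.61), Timp3 (0.79) and Adamts9 (0.83), and stood at 1.02 for Eln and 1.69 for Ccn2. Col14a1, a collagen of fibril surfaces, stood at 360.5 and 219 against 110 and 93.7.

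Several transcription factor genes were also among the 36. None of them, and none of the matrix genes above, was at least 2-fold higher than in the Sfrp4-Dlx5-Matn4 cells in both libraries. That set, described further on, was the nearest to the members. Foxd1 was at 274 and 240 CPM in the members against 77.3 and 102, Foxp2 at 172 and 242 against 66.0 and 61.0, and Erg at 64.7 and 55.9 against 15.6 and 14.3. Against the collagen-holding cells Foxd1 and Foxp2 were under 2-fold (0.67 and 0.72 on the log2 scale), and Erg was at 1.79. Foxc2 was at 40.1 and 66.5 against 15.1 and 24.5. It was the 1 gene past 2-fold in both libraries among 11 tested of the otic mesenchyme regulators. Others of that list were high in the members without that excess. Pou3f4, whose loss causes deafness through the otic mesenchyme, stood at 606 and 496.5 against 426 and 319.5, and Tbx18 at 329 and 386.5 against 323 and 320.1.

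The peptide system of Penk was present in parts. Mme encodes neprilysin, the membrane peptidase that breaks down enkephalins, and it stood at 417 CPM in the P1 members and 288 in the P7 members against 144 and 79.5 in other cells. In the Sfrp4-Dlx5-Matn4 cells Mme was at 243 and 137, and the excess over them was under 2-fold at P1 (0.77 on the log2 scale). Cpe, the carboxypeptidase that finishes enkephalins inside the cell, was lower in the members, at 154 and 120 against 470 and 275. Pnoc, the precursor of the opioid-like peptide nociceptin, was at 60.0 in the P1 members against 7.29, and at 16.2 in the P7 members against 3.99, which left it under the 50 CPM limit. Of 18 genes found of the opioid peptide list, 6 were tested. Penk chose the cells, and of the other 5, 1 (Mme) was higher in the members and 1 (Cpe) lower, where 1.29% and 0.751% of all genes tested were. None of the 6 was at least 2-fold different between ages, where 4.5% of all genes tested were higher and 2.68% lower at P7. Another membrane carboxypeptidase gene, Cpm, stood at 279 and 525 against 87.4 and 187. Tac1, the precursor of the tachykinin substance P, was at 178 and 180.3 CPM in the members.

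Among the partners of the other rule genes few genes of each list passed 2-fold. Col8a2, the second collagen VIII chain, stood at 47.5 CPM at P1 and 28.3 at P7 against 12.9 and 15.2. Of 6 tested genes of the HNK-1 and proteoglycan linker list, none but B3gat2, which chose the cells, passed 2-fold in both libraries, and B4galt7, which adds a linker sugar, stood at 58.9 and 93.4 against 37.5 and 58.3. Of 12 tested genes of elastic fibres and their crosslinking, Eln was the 1 gene past 2-fold in both libraries, while the median of the list was 0.90 at P1 and 0.51 at P7 on the log2 scale, against 0.01 and 0.05 over all genes tested. Mfap2, a microfibril gene, was the most abundant of that list at 901 and 1354 CPM against 483 and 677. Of 5 tested retinoic acid genes Dhrs3, a retinaldehyde reductase, was higher in the members, at 110 and 119 against 37.5 and 43.8, and Rarb was at 126 and 158 against 67.1 and 80.7. Crym, which encodes a thyroid hormone binding protein, stood at 4753 and 5142 CPM in the members against 2612 and 2396.

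Genes lower in the members in both libraries included those of glia and several of the wider mesenchyme. Mbp, which encodes myelin basic protein, was at 29.3 and 191 CPM in the members against 161 and 724. Vim, the intermediate filament of mesenchyme, was at 1882 and 1338 against 4777 and 4309. Ccn3 was at 677 and 606.5 against 1879 and 1402, and Apod at 379 and 506 against 837.5 and 2452. Of the members, 119 at P1 (13.8%) and 18 at P7 held 2 or more UMIs of both Col1a1 and Col3a1, against 10.7% and 14.8% of other cells.

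**Figure D2:**
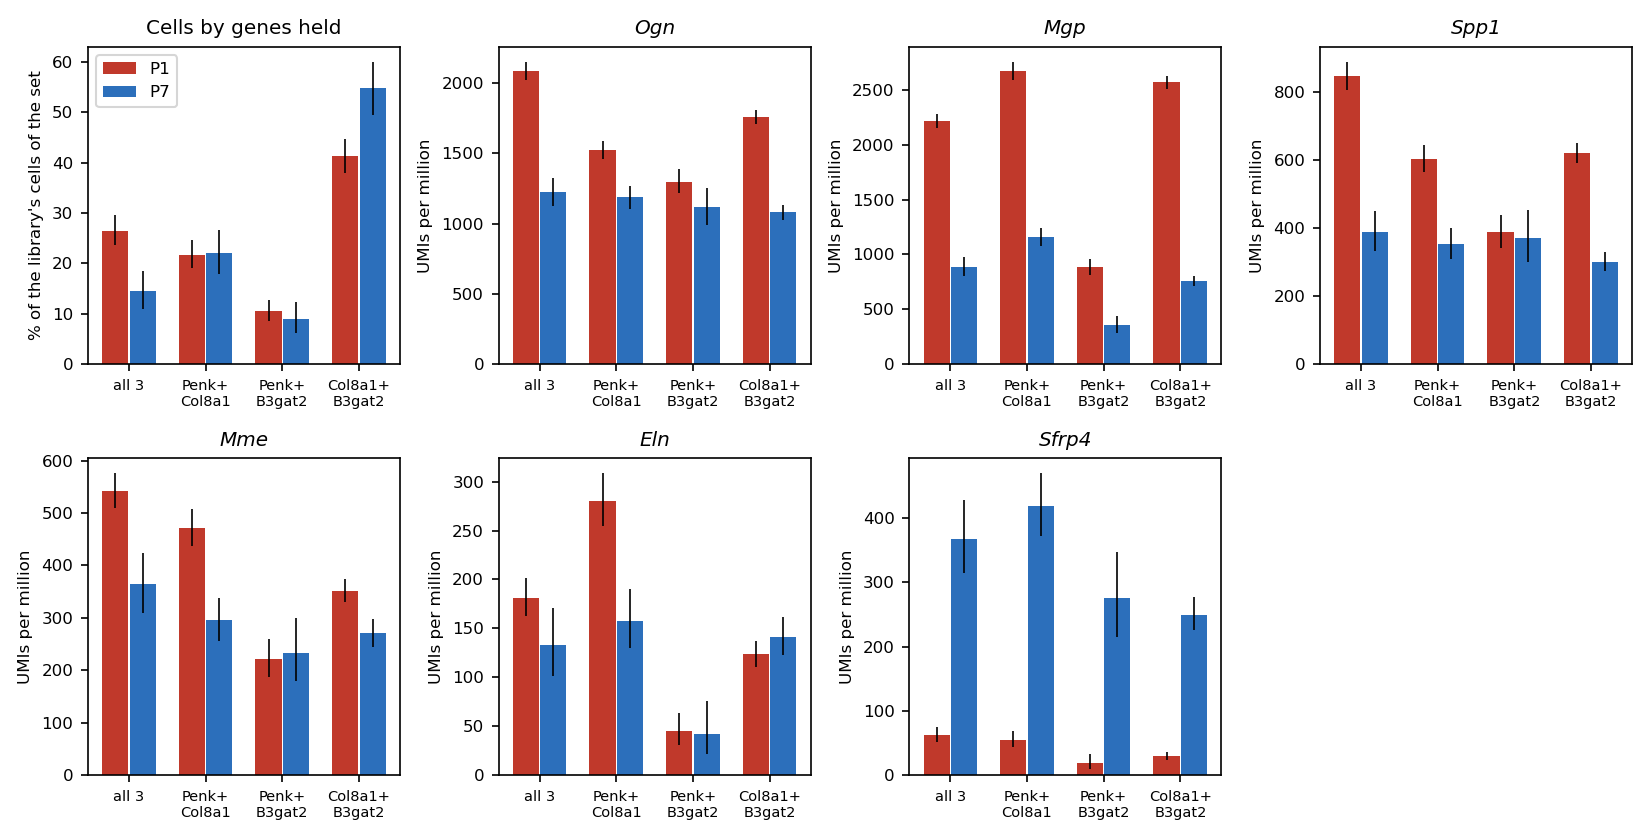
Members split by the rule genes they held (all 3, or 1 of the 3 pairs), at P1 and P7. Bars give the percent of that library's members in each split with 95% exact binomial intervals (upper left), or CPM of Ogn, Mgp, Spp1, Mme, Eln and Sfrp4 with 95% Poisson intervals, and cells with Penk and B3gat2 but no Col8a1 had the least Mgp and Eln in both libraries.

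Cells picked by different rule genes shared the leading genes to unequal degrees. Of the 22 leading genes that the rule did not read, all 22 lay above other cells in each of the 4 splits in both libraries. These genes were picked for their excess in the members, which are the 4 splits together. Lying above other cells was thus partly fixed by that choice and is no support for a shared identity. Among members with all 3 rule genes, 22 were at least 2-fold above, with a median log2 excess of 1.97 at P1 and 1.75 at P7. Among members with Penk and B3gat2 but no Col8a1 the numbers past 2-fold came to 10 (P1) and 15 (P7), and the median excess to 0.90 and 1.30. Eln in that split stood at 44.8 CPM at P1, against 280 in members with Penk and Col8a1 and 181 in those with all 3 genes. Mgp there was at 885 at P1 and 356 at P7, against 2671 and 1160 in members with Penk and Col8a1. Ogn varied less, from 1299 to 2084 at P1 and from 1080 to 1222 at P7 across the splits.

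The members also varied with Gpc3 and Dcn, which the rule limited. At P7, 226 members reached the limit for 1 of these genes and 134 for neither, and Mgp stood at 1134 and 241 CPM in them, Spp1 at 430 and 140. At P1 the values were 2656 and 1817 for Mgp and 732 and 536 for Spp1, in 498 and 364 members. The cells that reached neither limit were shallower, with medians of 6290 and 6670 UMIs against 7122 and 7674.
Just outside the rule, the 1368 P1 cells and 1037 P7 cells with 1 of the 3 rule genes that met the other limits had 787 and 689 CPM of Ogn, between the cells with none (217 and 149.5) and those with 2 (1623 and 1113). Members with Otor at 0.8 to 1% of UMIs (44 and 26 cells) had 960 and 905 CPM of Ogn, and cells at 1 to 1.2% (28 and 23 cells) had 942 and 895. The limit on Gpc3 and Dcn alone left out 366 cells at P1 and 365 at P7 that otherwise met the rule, in which Ogn stood at 1504 and 1126 and Mme at 587 and 289. Spp1 stood at 1375 and 861.5 in those left-out cells, against 655 and 333 in the members.

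The nearest set was that of the Sfrp4-Dlx5-Matn4 cells, which hold at least 2 of those genes under the same Otor and Gpc3-Dcn limits. Of the P1 members 15.8% (136 cells) met that rule too, and of the P7 members 57.8% (208 cells), and these stayed with the members here. Outside the members, the cells of that set were also more frequent at P7, at 6.59% of kept non-dividing cells against 0.993% at P1. Sfrp4, which that rule reads, was higher at P7 in other cells too, as given further on. The cause of the larger overlap at P7 was not tested. Against the remaining 111 and 719 cells of that set, 8 of 2929 genes were at least 2-fold higher in the members in both libraries (0.273%) and 8 were lower (0.273%). Of the 8 higher, 3 were haemoglobin genes, Penk and B3gat2 chose the cells, and Tectb rested on few cells. The other 2 were LOC103694857 (1218 and 2628 CPM against 415 and 825) and LOC689064 (403 and 913 against 130 and 335), for which the files give no gene name. In the order of the deposited genes, both stood directly before Hbb, a haemoglobin gene, among the genes called between the ages. Like Hbb they were higher at P7, and whether they are haemoglobin genes too was not checked. Lower in the members were Alpl, which encodes the alkaline phosphatase of mineralizing tissue (9.12 and 10.3 against 133 and 76.7), the set's own Dlx5 (4.92 and 54.5 against 34.2 and 226), Sema3d (19.8 and 14.1 against 57.8 and 43.9) and Nrp2, a semaphorin receptor (41.0 and 23.4 against 105 and 65.9).

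From the Gpc3-Dcn cells the members differed in more genes, with 24 of 2943 at least 2-fold higher (0.815%) and 47 lower (1.6%). Aqp1, a water channel, was at 72.7 and 213 CPM in the members against 15.5 and 40.5, Crym at 4753 and 5142 against 1342 and 1235, and Sfrp2 at 77.8 and 107 against 27.5 and 18.3. Lower in the members were Pltp, a phospholipid carrier (85.0 and 169 against 399 and 832), Lepr (40.7 and 52.8 against 168 and 364) and Col15a1 (7.24 and 5.52 against 46.2 and 265.5). From the Aldh1a2-Scara3 cells the distance was wider, with 148 of 3101 genes higher (4.77%) and 106 lower (3.42%). Col9a1, a chain of collagen IX, stood at 4167 and 7122 in the members against 215 and 340, and Col11a1 at 385 and 913 against 33.9 and 86.6, while Cav1 was lower, at 45.0 and 17.2 against 629 and 446.
Cells past the Otor limit gave 65 of 2945 genes higher in the members (2.21%) and 37 lower (1.26%). Otos, which encodes otospiralin of the fibrocytes, was at 8.40 and 26.6 CPM in the members against 143 and 1221, and Mme at 417 and 288 against 85.2 and 48.6. Against other cells with 2 or more UMIs of both Col1a1 and Col3a1, 78 of 3136 genes were higher in the members (2.49%) and 216 lower (6.89%). Igfbp2, a carrier of insulin-like growth factors, was at 1778 and 4040 against 524 and 975 there.

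Between the ages, 126 of 2798 genes were at least 2-fold higher at P7 in the members with a counting interval beyond no change (4.5%), and 75 were at least 2-fold lower (2.68%). In all other kept cells the same genes gave 134 (4.79%) and 71 (2.54%). The genes higher in both were 92, which is 73.0% of the members' and 68.7% of the other cells', and the genes lower in both were 50, or 66.7% and 70.4%. The median log2 ratio over all genes was 0.11, and after scaling it to 0 the counts were 99 higher and 115 lower, so that 46.3% of the called genes were higher in place of 62.7%.

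Sfrp4, a secreted Wnt antagonist, stood at 43.0 CPM at P1 and 311 at P7 (log2 ratio 2.72, interval of the count ratio 2.66 to 3.05), and other cells went from 7.84 to 65.6. It was held by 17.1% of the P1 members and 59.4% of the P7 members, against 0.649% and 12.3% of macrophage-marker cells. Scx, a regulator of tendon and ligament cells, went from 45.2 to 191, Pmepa1, a brake on TGF-beta signals, from 44.5 to 260.0, Col11a2 from 46.9 to 249, P3h3, a collagen prolyl hydroxylase, from 74.4 to 321, and Lrrn1 from 24.9 to 121. Slco1c1, a thyroid hormone carrier, went from 12.02 to 98.6 and the tetraspanin gene Cd9 from 53.6 to 351. Both were higher in other cells at P7 (136.5 and 649), and macrophage-marker cells had 80.3 and 322.5 CPM of them, levels close to those of the members. Mbp was higher in the P7 macrophage-marker cells than in the members, at 531 against 191.

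Among the genes lower at P7, Col1a1, a chain of collagen I, stood at 43.1 CPM in the P7 members, while the interval of its P1 level was 484 to 518 CPM (log2 ratio -3.40, interval -3.81 to -3.28), and it went from 226 to 152 in other cells. At P1 the 187 members with Penk and Col8a1 but no B3gat2 held 2099 of its UMIs, at 1415 CPM, against 60.75 to 356.5 CPM in the other splits. The log2 ratio was -2.03 in members with Col8a1 and B3gat2 but no Penk, and -4.24 without barcodes holding 3 or more markers of another class. It was found in 189 of the P1 members and 49 of the P7 members, and the P7 level lay under the 77.7 of macrophage-marker cells. Csrp2, a LIM domain protein gene, went from 499 to 156 in the members and from 308 to 382 in other cells. Sfrp1, another Wnt antagonist, stood at 178 at P1 and had a log2 ratio of -1.73 in the members, and went from 234 to 147 in other cells. Gas2 went from 108 to 32.8 and Col6a1 from 84.2 to 26.2. Of the markers, Mgp had a log2 ratio of -1.47 in the members against -0.40 in other cells, Penk -0.97 against -0.95, Spp1 -0.97 against -1.54, Ogn -0.63 against -0.06, B3gat2 -0.52 against -0.34 and Col8a1 -0.19 against 0.30. Csrp2, Mgp, Ogn and Col1a1 thus had ratios in the members further below 0 than in other cells, with no test of the difference.

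**Figure D3:**
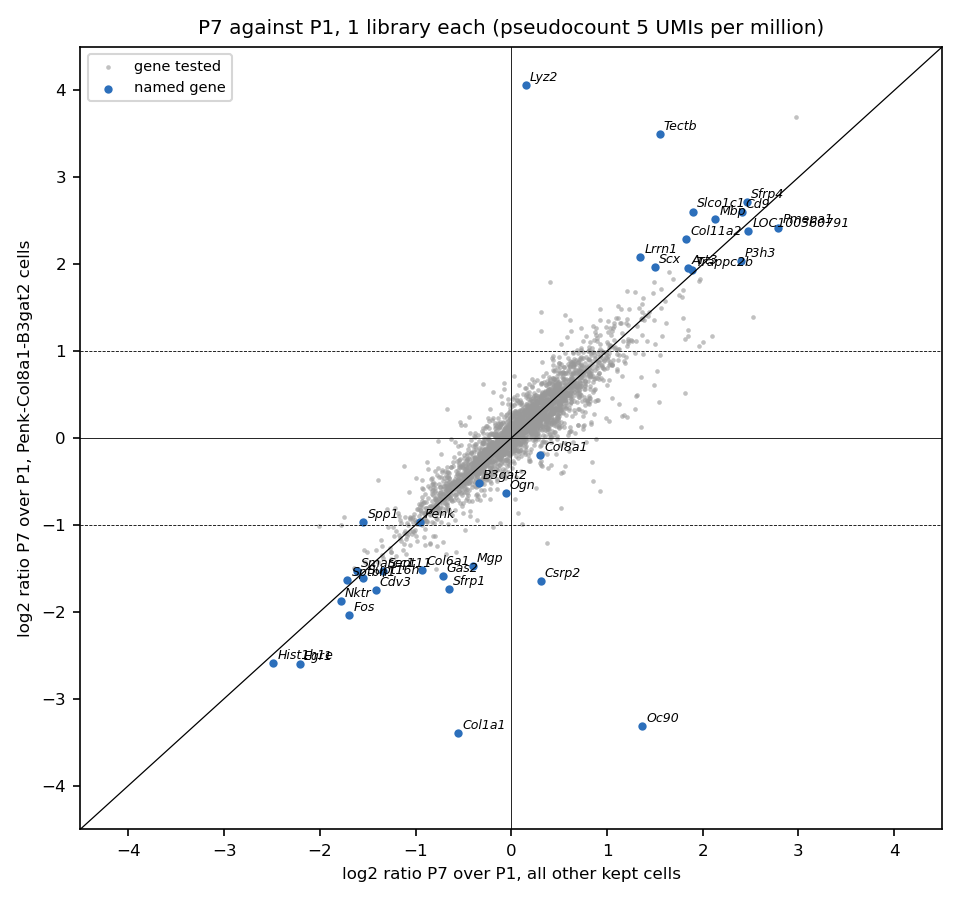
Log2 ratio of P7 over P1 with a pseudocount of 5 CPM, in all other kept cells (horizontal) and in Penk-Col8a1-B3gat2 cells (vertical), 1 point per gene tested, with the markers and the 15 largest rises and falls named, except 1 rise not reported here. Most genes lie near the diagonal of equal ratios, Col1a1 (-3.40 against -0.55) and Csrp2 (-1.64 against 0.31) lie below it, and Lyz2, Tectb and Oc90 are each carried by few cells.

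Immediate early genes, which cells switch on within minutes of a stimulus or of tissue handling, were lower at P7. Of 11 tested, 7 were at least 2-fold lower in the members (Fos, Fosb, Jun, Jund, Egr1, Ier2 and Btg2) and none was higher, with a median log2 ratio of -1.19 against 0.11 over all genes tested. In other cells 3 of them were lower and the median was -0.91. Egr1 went from 763 CPM to 122 in the members and from 548 to 114 in other cells, and Fos from 1340 to 323 and from 1135 to 347. Macrophage-marker cells showed the same order, at 421 and 73.1 for Egr1. The Egr1 promoter printed above held 2 CArG boxes, and 4 of 13 promoters found for the 19 listed genes held that motif (30.8%), against 1.497% of all windows. These were Egr1, Egr2, Klf6 and Zfp36, of which only Egr1 is among the 7 lower genes. The cyclic AMP response element had the same count, in 4 other promoters of the list (30.8%, against 1.59% of windows). These were Btg2, Dusp1, Ier2 and Jund, all but Dusp1 among the 7. The Sp1 box was in 53.8%, against 30.5%. A link between a motif and the lower levels was not tested.
Of 75 ribosomal protein genes tested, 7 were lower at P7 in the members and 7 in other cells, where 2.68% and 2.54% of all genes tested were lower. Ribosomal protein genes took 23.4% of the members' UMIs at P1 and 17.6% at P7.

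Several of the largest ratios rested on few cells. Oc90, a gene of otoconial and other inner ear epithelium, stood at 237 CPM in the P1 members and 19.3 at P7, and 1 cell held 95.7% of its P1 UMIs. Lyz2, a macrophage gene, stood at 4.49 and 153, and 1 cell held 61.4% of its P7 UMIs. Tectb, a gene of the tectorial membrane, stood at 5.50 and 113, and 1 cell held 79.6% of its P7 UMIs. Without the 5 cells richest in each gene, the log2 ratio was 0.56 for Oc90, 0.39 for Lyz2 and 1.02 for Tectb. The ratios of these 3 genes thus rested on few cells. The same step left Sfrp4 at 2.82, Scx at 1.99, Col1a1 at -3.78, Csrp2 at -2.19 and Mgp at -1.70.

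**Figure D4:**
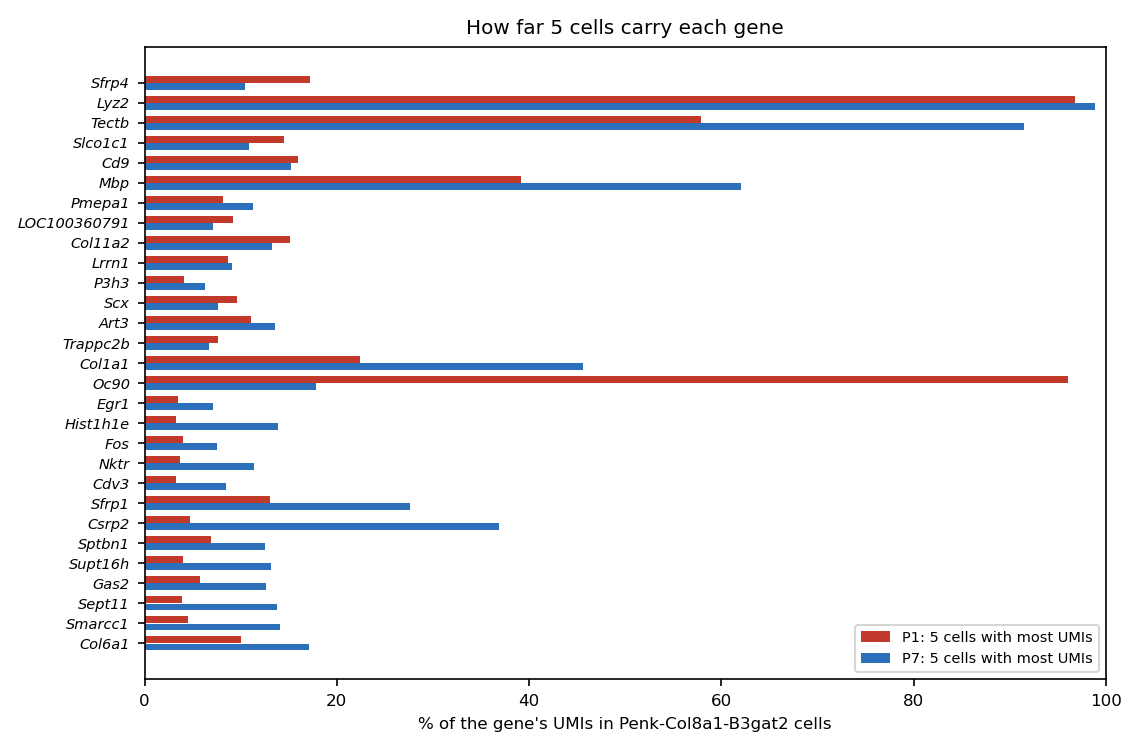
Percent of each gene's UMIs in the members that came from the 5 cells richest in it, at P1 and P7, for the 15 genes with the largest rise and the 15 with the largest fall from P1 to P7, except 1 rise not reported here. For Oc90 at P1 (96.1%), Lyz2 at P7 (98.9%) and Tectb at P7 (91.5%) 5 cells held nearly all UMIs, while for Fos, Egr1 and P3h3 they held less than 8%.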

How the data were processed

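Cochlear ducts were dissociated and loaded on the 10x Chromium 3' kit (V3), and the authors deposited UMI counts per gene and barcode for each library, counted on rat build rn6 by the study's methods with bcl2fastq and Cell Ranger (3.1.0 per the file headers), with Seurat 3.1.1 named in the submitters' notes. The genome annotation's version and doublet removal are not given in the sources used here. The deposited barcodes were 14068 (P1, 114285848 UMIs) and 14501 (P7, 101264868 UMIs), 60 barcode sequences occurred in both libraries, and 4 P1 and 2 P7 members carried such a barcode. No doublet caller was run. Instead, barcodes with 3 or more markers of another cell class were left out as an alternative.

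Counts were summed over the member cells of each library and given per 1000000 UMIs (CPM) with Poisson intervals, and shares with Clopper-Pearson intervals, at 95%. With 1 library per age no test was run. Log2 ratios used a pseudocount of 5 CPM, over genes with at least 50 CPM in the members in the mean of both libraries. A gene was called between ages past 2-fold with a conditional binomial interval of the count ratio beyond no change, and against other cells past 2-fold in both libraries. Shares after thinning used 2000 UMIs per cell, leaving out 2 P1 and 5 P7 members. Macrophage-marker and glia-marker cells held 3 or more of the markers of their class. Levels in macrophage-marker cells, and their shares with a UMI, leave out members (154 cells at P1 and 203 at P7). The genes named are the markers, the rule genes, the 25 with the largest lower-of-both excess over other cells, the 15 largest rises and falls, and per gene list the 4 most abundant and those past 2-fold between ages. The genes lower in members than in other cells, those leading each comparison of sets, and Foxc2, Tac1 and Pnoc were chosen after their values were seen, and 1 gene that the rule names is not reported here. Members and the 39 gene lists were chosen with earlier results of these data known. Scripts were tested on simulated data, with pandas 2.3.3, scipy 1.17.1, numpy 2.4.6 and matplotlib 3.10.9 under Python 3.11.15. Printed promoters are from RefSeq on GRCr8, and 3 of the 5 genes searched were found.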

Additional observations from a re-analysis of the deposited data

Results flagged for a closer look

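The excess of Lyz2 in Penk-Col8a1-B3gat2 cells over other kept cells changed direction between the libraries, from -2.79 on the log2 scale at P1 to 1.12 at P7, a difference of 3.91 that was not tested. At P7, 10 members held its 445 UMIs and 1 of them held 61.4%. Col1a1 changed the other way, from 1.13 at P1 to -1.71 at P7, a difference of -2.84 that was not tested either. Its UMIs at P1 were found in 189 of the 862 members, of which the richest held 5.1%. The 187 members with Penk and Col8a1 but no B3gat2 held 2099 of these UMIs, and 30.5% of those members held any. Col1a1 stood at 1415 CPM in that split, against 60.75 to 356.5 in the others.

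Dividing cells, which were left out of the members, also met the rest of the rule. They were 115 cells at P1 (7.21% of 1596 dividing cells, interval 5.99 to 8.59) and 44 at P7 (2.65% of 1663, 1.93 to 3.54), shares close to those among the cells that were not dividing. Ogn stood at 1436 and 1117 CPM in them against 288 and 231 in other dividing cells, Pdgfrl at 222.5 and 285 against 29.1 and 45.8, and Mme at 533 and 204 against 128 and 49.3.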

How the results depend on the processing

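The share of members moved with the rule and kept its order between the ages in each alternative run. At P1 and P7 it was 2.61% and 0.789% after thinning, 2.04% and 0.476% with all 3 rule genes required, 3.41% and 0.870% with 2 UMIs each, 6.47% and 2.44% with Otor below 0.5%, 8.60% and 3.75% below 2%, 10.98% and 6.64% with the Gpc3-Dcn cells kept, 8.68% and 4.20% with a mitochondrial limit of 10%, and 9.64% and 4.63% without mixed-marker barcodes. The log2 ratio of the shares was -1.73 after thinning, -2.10 with all 3 genes, -1.97 with 2 UMIs each, -1.41 with Otor below 0.5% and -0.73 with the Gpc3-Dcn cells kept.

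With a minimum of 20 CPM, 305 genes were higher and 148 lower at P7, and with no minimum 577 and 271. Genes lower at P7 were 115 under median scaling, 151 with totals freed of mitochondrial, ribosomal protein and haemoglobin genes, and 120 with all 3 rule genes. The split of called genes was 50.3% higher with those totals. Against other cells with collagen UMIs, 78 genes were higher and 64 lower in the members, of those at 50 CPM in the members. Against all other kept cells, 48 genes were higher and 46 lower with a minimum of 20 CPM. Without mixed-marker barcodes 24 were higher and 8 lower, in place of 36 and 21. Against those collagen cells 9 of the 25 leading genes were under 2-fold in at least 1 library, and without mixed-marker barcodes 3 (Ogn, Foxd1 and Thbs2).

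Oc90 reversed to 0.67 without mixed-marker barcodes, to 0.90 after thinning and to 0.96 in cells with Col8a1 and B3gat2 but no Penk, and Lyz2 reversed to -1.46 in the last. That split and the removal of the 5 richest cells were chosen after seeing the data. No paired analysis was possible because each age is 1 library, which also leaves no replicate to leave out.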
